A study of Mus musculus with 34 samples.

Results

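The integrins and the laminins are the receptors and the main ligands of cell adhesion to basement membrane, and their mRNAs were measured here in kidneys of mice with and without polycystic kidney disease. Members were chosen by gene symbol, as every integrin alpha chain, integrin beta chain and laminin chain in the gene tables. This rule was set with earlier results of these data known. The rule gave 37 genes of 23509, namely 26 integrin chains and 11 laminin chains. Of these, 36 had enough counts to be tested. The exception was *Itgad*, an alpha chain of leukocytes, which had between 0 and 4 counts in any library and whose level did not exceed 0.0334 CPM (reads of the gene relative to the size of the library, on the counts-per-1e6 scale) in UNT, 0.0718 in PBS and 0.173 in RGLS4326.

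Poly(A) RNA was sequenced from kidneys of 34 C57BL6 mice at postnatal day 28 (P28). *Pkd2*-KO mice (Pkhd1/cre;*Pkd2* F/F, a genotype that the sample labels spell Pdk2KO) were injected subcutaneously on P10, P11, P12 and P19 with PBS (n = 11) or with 20 mg per kg of RGLS4326 (n = 11), and untreated, non-transgenic wildtype mice (UNT, n = 12) were taken at the same age. The Pkhd1 promoter drives Cre in tubule and collecting duct epithelium, so other cells of these kidneys keep *Pkd2*, and the UNT mice differed from the PBS mice both in genotype and in having had no injection. The compound RGLS4326 is a chemically modified oligonucleotide, shorter than a microRNA, whose bases pair with the seed of miR-17. None of the 34 mice was given a control oligonucleotide. Effects of the compound's sequence and of its chemistry therefore cannot be told apart in these data.

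Each integrin is a pair of 1 alpha and 1 beta chain that spans the membrane, binds matrix or a counter-receptor outside the cell and links to actin, or in the case of *Itgb4* to keratin filaments, inside it. Each laminin is a trimer of an alpha, a beta and a gamma chain that polymerizes into the basement membrane under every epithelium. Tubule cells hold on to laminin mainly through *Itga3* and *Itga6* paired with *Itgb1* or *Itgb4*, while leukocytes carry a set of integrins of their own, built around *Itgb2* and *Itgb7*. In the mature kidney, *Lama5* is the main alpha chain of glomerular and tubular basement membranes, *Lamb2* the beta chain of the glomerular one, and *Lamb1* a beta chain of tubules.

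Each library held between 17603122 and 54981992 reads in genes. *Pkd2* was at 219.6 to 337.7 CPM in UNT, 98.0 to 214.5 in PBS and 170.0 to 236.9 in RGLS4326, so that every PBS library was below every UNT library. Reads in no gene took 9.84 to 11.3% in UNT, 5.18 to 9.0% in PBS and 4.94 to 12.0% in RGLS4326, and reads without a unique position 22.8 to 25.7%, 14.8 to 19.4% and 14.8 to 19.1%, so that neither share overlapped between UNT and PBS and both moved with that group difference. The part of the latter in the results was not tested, and counts with the former in the model are given with the comparisons. The PBS library of replicate 9 stood farthest from its group (a root mean square log2 distance of 0.580 from the group median, against 0.294 to 0.491 for the other 33), and it held the lowest PBS level of 18 of the 36 tested members, *Itga8*, *Itgb8*, *Itga6* and *Lama2* among them. The library numbers in the file names restart, which splits the 34 libraries into 3 numbering series with mice of all 3 groups in each. Markers of proximal tubule, thick ascending limb, collecting duct and podocytes were present in every group. No pairing of mice across groups is stated.

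Most integrin and laminin mRNAs were higher in cystic than in normal kidney. Between PBS and UNT, 34 of the 36 tested members were called (adjusted p below 0.05 by edgeR), with 29 of them higher in the cystic kidneys and 5 lower, whereas over all 15644 tested genes 82.1% were called, 43.1% higher and 39.0% lower. The share called was thus near the background and the direction was not, and the median log2 fold change was 1.21 over the members against 0.04 over all tested genes. In 19 members every PBS library was above every UNT library (22.7% of all tested genes), and in 1, *Itga2b*, every PBS library was below (19.8% of all). With a log2 fold change above 0.5 as well, 28 members were called (56.3% of all tested genes). All 34 calls remained with any single library left out. With a whole numbering series left out, fewer members were called. The counts were 27 higher and 5 lower without series 1, 27 and 4 without series 2, and 29 and 4 without series 3. Scaling to total counts moved the median of all genes to 0.33 and the calls over all genes from 6746 higher and 6095 lower to 8970 and 4099, and the members to 29 higher and 3 lower. With the no-gene read share as a covariate 29 members were higher and 2 lower, as *Itga8*, *Itga10* and *Itgb8* (log2 fold change −0.91, adjusted p = 0.057) were no longer called. Kidneys are mixtures of cells, and fewer or more cells of a type and less or more RNA per cell cannot be told apart in these data.

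**Figure D1:**
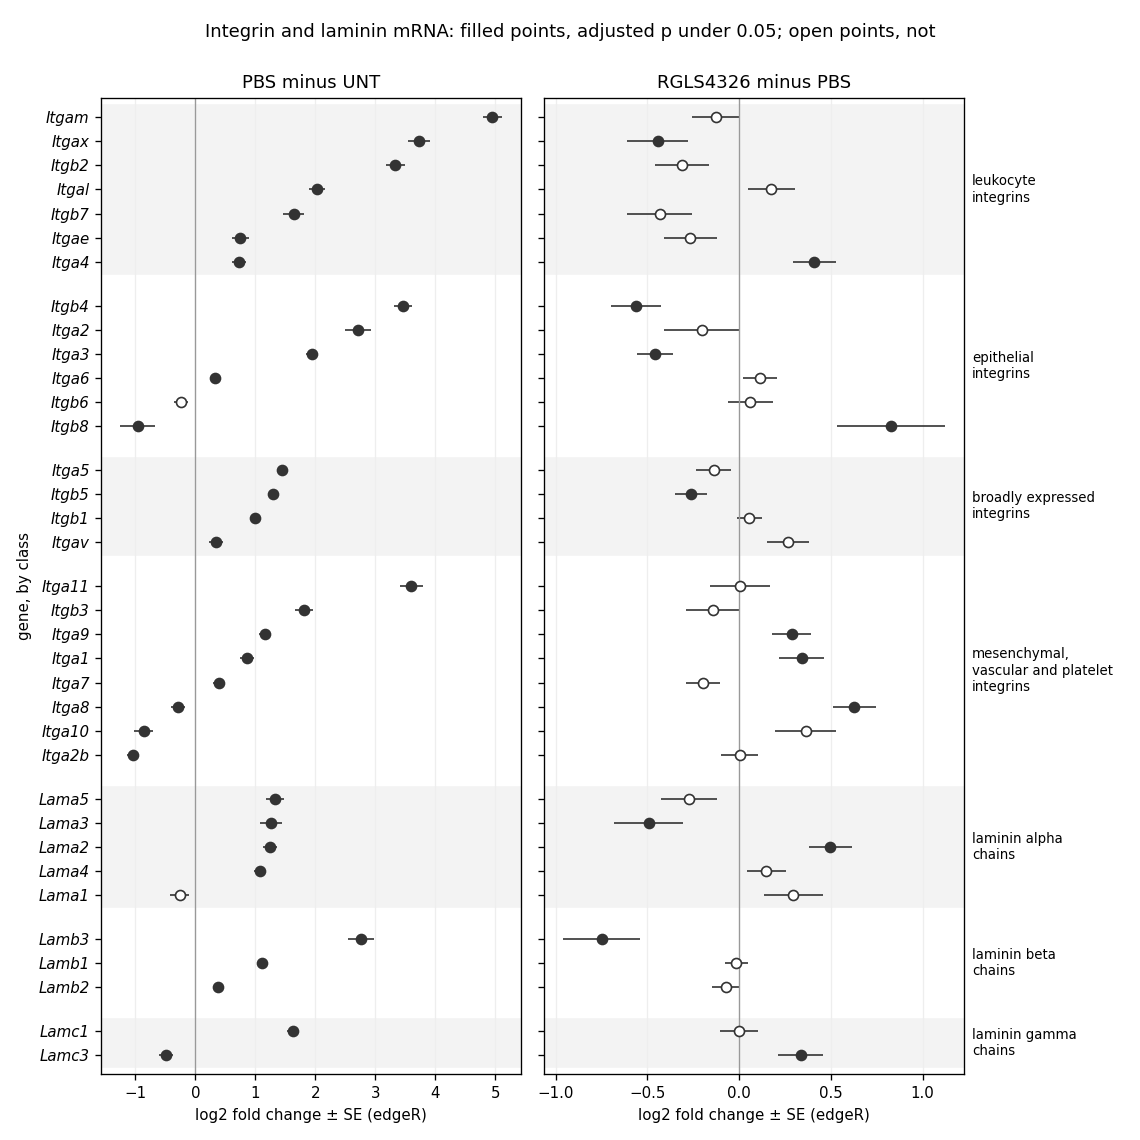
Log2 fold change with its standard error of 35 tested members, grouped by class, for PBS against UNT (left) and RGLS4326 against PBS (right), on axes of different length. Filled points passed the threshold of 0.05. On the left 28 filled points lie to the right of 0 and 5 to the left, and on the right 7 filled points lie to the right of 0 and 6 to the left.

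The leukocyte integrins rose together. All 7 tested members were higher in PBS than in UNT, with a median log2 fold change of 2.03. *Itgam* (CD11b), which marks monocytes, macrophages and neutrophils, was lowest at 1.16, median 1.75 and highest at 2.12 CPM in UNT, and 28.3, 53.6 and 75.8 CPM in PBS. The groups did not overlap, and the log2 fold change was 4.95 ± 0.15 (SE; adjusted p = 6.2e-25), a 30.9-fold difference. *Itgax* (CD11c), found on macrophages and dendritic cells, ran from 1.28 (median 1.93) to 4.31 CPM in UNT and from 14.6 (median 25.3) to 41.8 in PBS, again without overlap, with a log2 fold change of 3.73 ± 0.19 (adjusted p = 1.8e-19). *Itgb2*, the beta chain that both need at the surface, ran from 2.42 (median 3.37) to 6.21 CPM in UNT and from 19.8 (median 32.1) to 48.3 in PBS, a log2 fold change of 3.33 ± 0.16 (adjusted p = 6.0e-20).

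*Itgal*, the alpha chain of the lymphocyte integrin LFA-1, was at 1.61 to 4.57 CPM in UNT and 9.18 to 16.3 CPM in PBS, and rose by a log2 fold change of 2.03 ± 0.13 (adjusted p = 2.0e-16). *Itgb7*, the beta chain of gut-homing and intraepithelial lymphocytes, was at 1.11 to 3.22 CPM in UNT and 3.70 to 10.5 in PBS, with a log2 fold change of 1.64 ± 0.18. Its partners moved less. *Itgae*, which binds E-cadherin on epithelium, had 1.48 to 3.24 CPM in UNT and 2.65 to 5.33 in PBS, and *Itga4*, which binds *Vcam1* and fibronectin, had 7.83 to 13.7 CPM in UNT and 11.3 to 23.2 in PBS. Both groups overlapped in these genes, and the log2 fold changes were 0.75 ± 0.14 (adjusted p = 9.6e-06) and 0.72 ± 0.11 (adjusted p = 5.3e-07). On GRCm38 with GENCODE M21, *Itgam* lies on chromosome 7 from 128062640 to 128118491 (plus strand) and *Itga4* on chromosome 2 from 79255426 to 79333123 (plus strand). Exons of *Itgam* are shared over 68.7% of their length with a gene model on the same strand, *Gm49368*. Whether the annotation used for counting held this model is not known, so the *Itgam* count is uncertain to that extent. Exons of *Itga4* are shared over 8.04% of their length with *Cerkl* on the other strand. The strand setting of the counting is not given in the sources used here, so the *Itga4* count is uncertain to that extent.

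**Figure D2:**
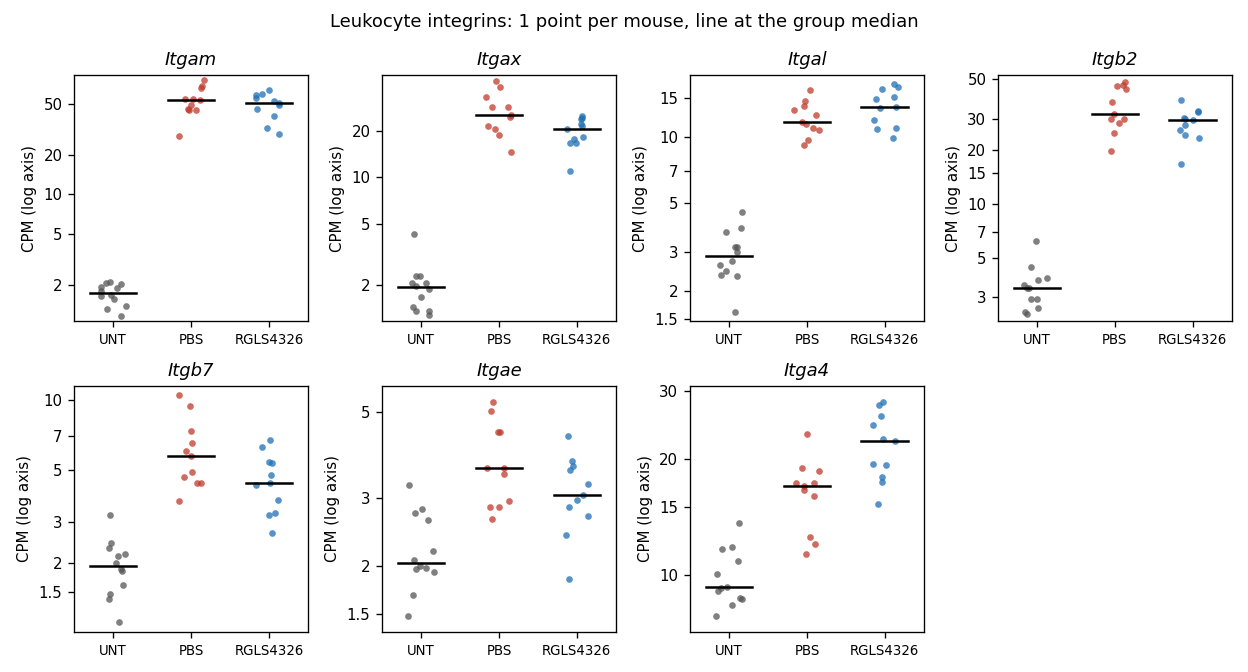
CPM on a log axis of the 7 tested leukocyte integrins, 1 point per mouse in UNT, PBS and RGLS4326, with a line at each group median. The PBS points of *Itgam*, *Itgax*, *Itgal*, *Itgb2* and *Itgb7* lie above every UNT point, while those of *Itgae* and *Itga4* overlap with UNT.

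Markers of blood cells were measured beside these integrins, and the macrophage and neutrophil markers and most T cell markers were higher in PBS. The summed level of 6 measured macrophage markers was 101 to 166 CPM in UNT and 806 to 2512 CPM in PBS, and all 6 were higher in PBS. The sum of 5 pan-leukocyte markers went from 25.7 to 53.6 CPM in UNT to 212 to 521 CPM in PBS, that of 5 T cell markers from 3.99 to 6.57 to 9.44 to 29.5 CPM, and that of 4 neutrophil markers from 1.60 to 7.51 to 7.85 to 40.6 CPM. Of the T cell markers 4 were higher and *Cd8a* was not called (−0.07 ± 0.19). Of 4 dendritic cell markers 3 were higher. Of 4 B cell markers 1 was higher, 1 lower and 2 not called, and *Alas2*, the 1 of 5 red blood cell markers that could be tested, fell by 1.74 ± 0.29. No macrophage, pan-leukocyte, T cell or neutrophil marker was at 0 throughout a group. The part of cell number in the integrin levels was not tested.

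The *Itgam* promoter is shown because this gene had the widest difference of all members. PU.1 is a transcription factor of myeloid cells, and its core motif, searched as GAGGAAG on both strands, is capitalized in the 300 bases around the start of *Itgam* (RefSeq, GRCm38.p6, plus strand, chr7:128062390-128062689).
Itgam: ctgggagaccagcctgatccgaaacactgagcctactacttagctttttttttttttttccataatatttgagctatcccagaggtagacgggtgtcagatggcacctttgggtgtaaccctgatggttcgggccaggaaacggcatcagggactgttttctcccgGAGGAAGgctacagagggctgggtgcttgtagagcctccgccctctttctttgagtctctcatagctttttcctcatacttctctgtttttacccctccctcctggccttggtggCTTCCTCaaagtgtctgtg
The window holds 2 matches, 1 on each strand. Windows were given for 23 members (26 windows), of which 8 windows (30.8%) held the motif against 13.6% of 32851 windows of the same length, and among the 4 leukocyte integrins with a window, *Itgam* and *Itgb7* held it. The other windows with a match belong to *Itga11*, *Itga2b*, *Itgav*, *Itgb6*, *Lama2* and *Lamb3*, which are not leukocyte integrins. The AP-1 motif TGANTCA was in 3 windows (11.5% against 7.81% of all), among them that of *Itgax*, and the TEAD motif GGAATG in 3 (11.5% against 14.7%).

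Among the epithelial integrins, the chains that bind laminin and collagen rose in cystic kidney and the chains that pair with *Itgav* did not. Of 6 members 4 were higher, 1 was lower and 1 was not called. *Itgb4*, the beta chain of hemidesmosomes, ran from 7.51 (median 13.3) to 15.9 CPM in UNT and from 99.8 (median 128.5) to 219.7 CPM in PBS, so that the lowest cystic kidney was far above the highest normal one, and its log2 fold change was 3.46 ± 0.15 (adjusted p = 1.7e-21), an 11-fold difference. The gene lies on chromosome 11 (115974709 to 116008412, plus strand), and a noncoding RNA on the other strand covers 7.66% of its exon length. *Itga3*, the laminin receptor chain of tubules and podocytes, ran from 62.2 (median 82.4) to 91.7 CPM in UNT and from 236 (median 289) to 436 in PBS, with a log2 fold change of 1.94 ± 0.10 (adjusted p = 3.0e-19). *Itga2*, a receptor chain for collagen and laminin, was at 1.79 to 3.36 CPM in UNT and 4.21 to 30.9 in PBS, with a log2 fold change of 2.71 ± 0.22, and its lowest PBS value was that of replicate 9.

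*Itga6*, the only alpha partner of *Itgb4*, overlapped between the groups, with 160 to 268 CPM in UNT and 147 to 310 in PBS. Its log2 fold change was 0.33 ± 0.09 (adjusted p = 0.0010) over all mice and −0.07 within numbering series 3 alone, where it was not called. *Itgb6*, which with *Itgav* binds and activates latent TGF-beta in epithelium, was not called, with 66.6 to 156 CPM in UNT, 67.5 to 109 in PBS and a log2 fold change of −0.24 ± 0.12 (adjusted p = 0.067). It was called lower in 5 of 14 alternatives, among them the replicate number as a block (−0.273, adjusted p = 0.0078) and DESeq2 (−0.270, adjusted p = 0.039), while 2 of the 14 turned its sign, to 0.010 with the no-gene read share in the model (adjusted p = 0.96) and to 0.047 with scaling to total counts (adjusted p = 0.75). *Itgb8*, the other beta chain known for activating TGF-beta, was uneven between mice. It ran from 25.9 (median 42.0) to 90.7 CPM in UNT and from 3.09 (median 23.4) to 49.2 CPM in PBS, and it fell by 0.96 ± 0.29 on the log2 scale (adjusted p = 0.0028). The difference of *Itgb8* was −1.03, −0.03 and −1.93 within numbering series 1, 2 and 3.

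The broadly expressed chains rose as well. *Itgb1*, the beta chain of most matrix receptors, was the most abundant integrin mRNA per length, at 106 CPM per kb of exon in UNT, 212 in PBS and 221 in RGLS4326 (group means). It ran from 408 to 542 CPM in UNT and from 625 to 986 CPM in PBS, without overlap, with a log2 fold change of 1.0 ± 0.067 (adjusted p = 7.3e-16). The fibronectin receptor chain *Itga5* and the vitronectin receptor chain *Itgb5* did not overlap between the groups either, and their log2 fold changes were 1.45 ± 0.10 and 1.30 ± 0.09. *Itgav*, the partner of *Itgb5*, *Itgb6* and *Itgb8*, rose least, with a log2 fold change of 0.35 ± 0.11 (adjusted p = 0.0053) that was −0.18 within numbering series 3 alone, where it was not called.

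Of the 8 mesenchymal, vascular and platelet integrins, 5 were higher and 3 lower in PBS. *Itga11*, a fibrillar collagen receptor of fibroblasts, was nearly absent from normal kidney, at 0.114 to 0.679 CPM in UNT (3 counts in the lowest library), and reached 2.51 to 7.28 CPM in PBS, a log2 fold change of 3.60 ± 0.19 (adjusted p = 9.4e-19). *Itgb3*, the beta chain of the platelet fibrinogen receptor and of an *Itgav* pair, rose from 2.11 to 4.47 CPM in UNT to 7.19 to 16.3 CPM in PBS. *Itga9*, a tenascin receptor chain, rose without overlap of the groups (log2 fold change 1.17 ± 0.10), and the collagen receptor chain *Itga1* (0.86 ± 0.12) and the laminin receptor chain of muscle, *Itga7* (0.39 ± 0.09), rose with overlap. *Itga1* was not called in numbering series 3 alone (0.443, adjusted p = 0.13) and *Itga7* was not in series 2 alone (0.217, adjusted p = 0.12). The sum of 5 fibroblast markers was 439 to 970 CPM in UNT and 2081 to 3882 CPM in PBS, and all 5 were higher. Of 4 endothelial markers 2 were higher and 2 lower, with sums of 346 to 438 CPM in UNT and 278 to 413 CPM in PBS. Of 3 smooth muscle and myofibroblast markers 2 were higher and 1 lower, with sums of 191 to 316 CPM in UNT and 638 to 1225 CPM in PBS.

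The 3 that fell were *Itga2b*, *Itga10* and *Itga8*. *Itga2b*, the alpha chain of the platelet fibrinogen receptor, ran from 6.15 (median 8.27) to 9.94 CPM in UNT and from 2.89 (median 3.74) to 5.74 CPM in PBS, and fell by 1.04 ± 0.10 on the log2 scale (adjusted p = 6.7e-12). The sum of 4 platelet markers went from 0.908 to 2.45 CPM in UNT to 9.15 to 24.7 CPM in PBS. Of these 4 markers 2 could be tested, and both were higher. The part of platelet number in these levels was not tested. *Itga10*, a collagen receptor chain best known from cartilage, fell by 0.86 ± 0.16 over all mice, and the difference was −0.096 (adjusted p = 0.61) when the no-gene read share entered the model. In this gene 33.5% of the exon length is shared with another gene model on the same strand, *Gm42957*. *Itga8*, the nephronectin receptor chain of mesangial and stromal cells, fell by 0.29 ± 0.11 (adjusted p = 0.020), a difference that was 0.001 when libraries were scaled to total counts and −0.020 (adjusted p = 0.90) in numbering series 1 alone, and that was called in 8 of 14 alternatives.

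Among the laminins, 9 of 11 chains rose in cystic kidney, and the chains of the epithelial laminin that *Itga6*-*Itgb4* binds in hemidesmosomes, *Lama3* and *Lamb3*, were among them. *Lamb3* ran from 6.68 (median 11.2) to 17.6 CPM in UNT and from 48.8 (median 62.2) to 194 CPM in PBS, without overlap, with a log2 fold change of 2.76 ± 0.22 (adjusted p = 4.9e-14). *Lama3* overlapped, at 20.9 (median 27.6) to 56.7 CPM in UNT and 41.3 (median 69.2) to 172 CPM in PBS, with a log2 fold change of 1.26 ± 0.18 (adjusted p = 1.4e-07).

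The sum of 6 markers of injured tubule epithelium stood at 154 to 228 CPM in UNT and 1674 to 3575 CPM in PBS. All 6 of these markers were higher in PBS. The sum of 4 collecting duct markers was 501 to 834 CPM in UNT and 787 to 2171 in PBS, and all 4 were higher, whereas the sum of 6 proximal tubule markers was 8902 to 12008 CPM in UNT and 701 to 2622 CPM in PBS, and all 6 were lower. The part of these cell types in the laminin and integrin levels was not tested.

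The trunk chains of the tubular basement membrane rose too. *Lamc1*, the gamma chain of most laminins, ran from 108 to 181 CPM in UNT and from 226 to 514 in PBS (log2 fold change 1.63 ± 0.10), *Lama5* from 152 to 319 in UNT and from 439 to 1511 in PBS (1.33 ± 0.15), and *Lamb1* from 200 to 261 in UNT and from 359 to 559 in PBS (1.117 ± 0.063). In these 3 genes every cystic kidney was above every normal one. *Lama2* of mesangium and muscle (1.25 ± 0.12), *Lama4* of blood vessels (1.08 ± 0.11) and *Lamb2* of the glomerulus (0.37 ± 0.07) rose with overlapping groups. *Lamc3* fell by 0.48 ± 0.12 (adjusted p = 0.00040), from 19.7 to 37.5 CPM in UNT to 10.0 to 29.4 CPM in PBS, and was not called with scaling to total counts (−0.190, adjusted p = 0.14) or in numbering series 1 alone (−0.321, adjusted p = 0.16). *Lama1*, the alpha chain of early nephron development, was not called, with 10.4 to 32.3 CPM in UNT and 8.45 to 24.2 in PBS (log2 fold change −0.26 ± 0.16, adjusted p = 0.12).

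Per kb of exon, *Lama5* and *Lamb1* held the largest share of the alpha and beta chains in all 3 groups, and the shares of the other beta chains moved. *Lama5* held 71.5% ± 4.46 (SD, n = 12) of the alpha chain level in UNT and 75.3% ± 5.04 (n = 11) in PBS, and the other alpha chains had mean shares of at most 11.5% in any group. *Lamb1* and *Lamb2* were nearly level in UNT, at 49.5% ± 3.70 and 46.7% ± 3.49 of the beta chain level, and apart in PBS, at 55.5% ± 5.59 and 31.3% ± 2.04, where *Lamb3* took 13.3% ± 5.76 in place of 3.87% ± 0.964.

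**Figure D3:**
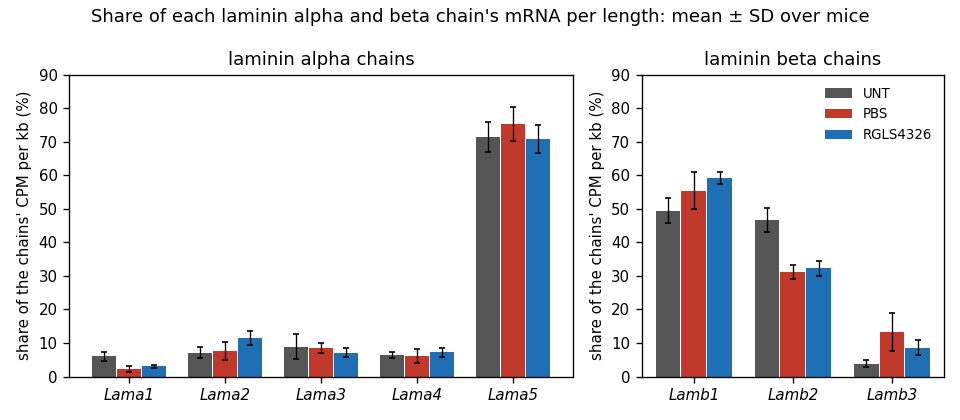
Share of each chain in the summed CPM per kb of exon of the laminin alpha and beta chains, as mean and SD over the mice of each group (n = 12, 11 and 11). *Lama5* and *Lamb1* lead their panels in all 3 groups, and *Lamb3* has its tallest bar in PBS.

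The integrin chains reordered as well. *Itga6* (27.7% ± 3.45) and *Itgav* (21.8% ± 3.22) led the alpha chain level in UNT, ahead of *Itga3* (17.5% ± 1.76). In PBS *Itga3* led with 32.5% ± 4.70, ahead of *Itga6* with 17% ± 2.05, and *Itgam* went from 0.419% ± 0.0746 to 6.28% ± 1.26 of the alpha chain level. Among beta chains *Itgb1* held 63.2% ± 2.93 in UNT and 59.5% ± 3.85 in PBS, *Itgb4* 1.11% ± 0.214 and 5.67% ± 1.14, and *Itgb6* 8.87% ± 2.12 and 3.59% ± 0.720.

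RGLS4326 treatment shifted fewer members, in both directions and by smaller amounts. Between RGLS4326 and PBS, 14 of the 36 tested members were called, 7 higher and 7 lower, against 33.8% of all tested genes, 15.3% higher and 18.5% lower. The median log2 fold change was −0.01 over the members and 0.00 over all tested genes. In no member were the groups free of overlap in either direction (0.0447% of all tested genes with every treated library higher and 0.0192% with every one lower). Of the 14, 4 also had a log2 difference beyond 0.5, *Itga8*, *Itgb8*, *Itgb4* and *Lamb3*, against 8.04% of all tested genes.

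All 14 kept their direction within each of the 3 numbering series and when the no-gene read share entered the model as a covariate. With this covariate 1 member, *Itga8*, was still called, and 89 of all genes. Within the numbering series, 1, 9 and 0 members were called in series 1, 2 and 3 (12 in series 3 at an unadjusted p under 0.05, all by edgeR's quasi-likelihood test). Of the 14, 7 remained called with any single library left out, *Itga3*, *Itga4*, *Itga8*, *Itgb4*, *Lama2* and *Lamb3* among them. The count was 9 without the PBS library of replicate 11 and 11 without that of replicate 9. The no-gene read share had a median of 6.62% in PBS and 8.38% in RGLS4326.

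The 7 members that fell included the laminin chains *Lama3* and *Lamb3*, the integrin chains *Itga3*, *Itgb4* and *Itgb5*, and *Itgax*. *Lamb3* ran from 48.8 (median 62.2) to 194 CPM in PBS and from 30.8 (median 46.4) to 84.5 CPM in RGLS4326, was below the PBS median in 10 of 11 mice, and fell by 0.75 ± 0.21 (adjusted p = 0.0093). The highest PBS library of *Lamb3* was replicate 11, and without it the log2 difference was −0.53 (adjusted p = 0.030).

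*Lama3* went from 41.3 (median 69.2) to 172 CPM in PBS to 34.8 (median 52.9) to 68.4 CPM in RGLS4326. All 11 treated mice were below the PBS median, and *Lama3* fell by 0.49 ± 0.19 (adjusted p = 0.040). This call rested on single libraries, since leaving out the PBS library of replicate 2, 3, 4, 9 or 11 or the RGLS4326 library of replicate 1, 2, 5, 6, 7 or 11 ended it. The value without PBS replicate 11 was −0.29 (adjusted p = 0.15).

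*Itgb4* ran from 99.8 (median 128.5) to 220 CPM in PBS and from 70.6 (median 90.5) to 131 CPM in RGLS4326, was below the PBS median in 10 of 11 treated mice, and fell by 0.56 ± 0.14 (adjusted p = 0.0050). *Itga3* ran from 236 (median 289) to 436 CPM in PBS and from 174 (median 226) to 289 CPM in RGLS4326, and fell by 0.46 ± 0.10 (adjusted p = 0.0026). *Itgb5* fell by 0.26 ± 0.09 (adjusted p = 0.020), and its adjusted p was 0.052 without the PBS library of replicate 11. *Itga6*, which pairs with *Itgb4*, was not called, with a median of 273 CPM in PBS and 282 CPM in RGLS4326.

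**Figure D4:**
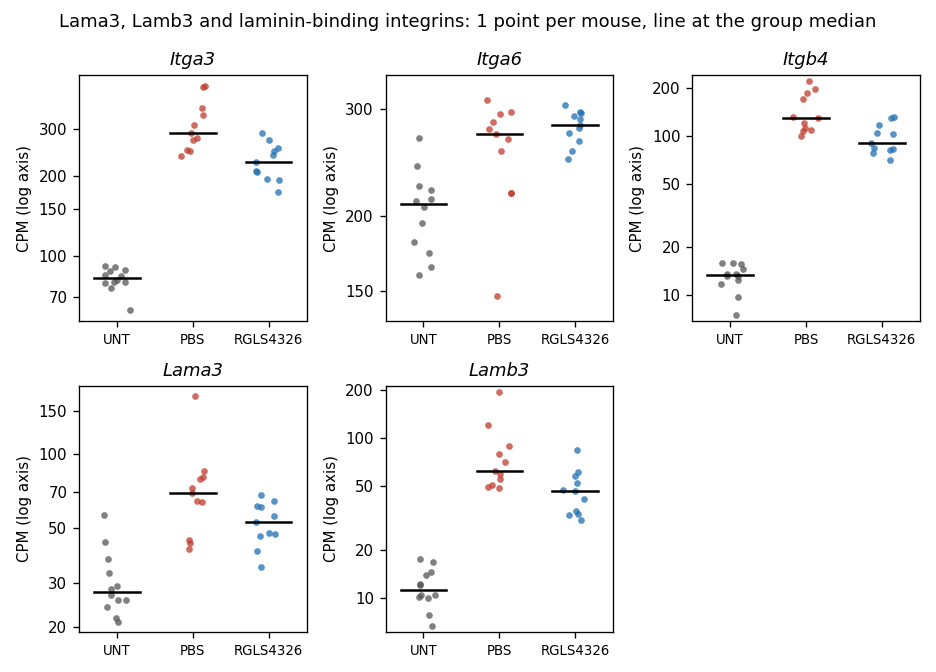
CPM on a log axis of *Lama3* and *Lamb3* and of 3 integrin chains that bind laminin, 1 point per mouse with a line at the group median. *Itga3*, *Itgb4*, *Lama3* and *Lamb3* have their highest median in PBS and an intermediate one in RGLS4326, while the medians of *Itga6* in PBS and RGLS4326 lie at 273 and 282 CPM.

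Markers of injured epithelium and collecting duct moved with these members. Of 6 injury markers 4 were lower in RGLS4326 than in PBS and none higher, with a sum of 1674 to 3575 CPM in PBS and 945 to 2419 CPM in RGLS4326. Of 4 collecting duct markers 2 were lower, with a sum of 787 to 2171 CPM in PBS and 426 to 1914 CPM in RGLS4326, and of 6 proximal tubule markers 4 were higher, with sums of 701 to 2622 and 1690 to 2971 CPM. The part of these cells in the integrin and laminin differences was not tested.

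Among the members that rose, *Itga8* (chromosome 2, 12106632 to 12301922, minus strand) was called in 12 of 14 alternatives, more than any other of the 14 members. An antisense gene model, *E030013I19Rik*, covers 5.05% of its exon length, and the strand setting of the counting is not known. It ran from 17.8 (median 37.1) to 49.7 CPM in PBS and from 49.2 (median 57.8) to 61.8 CPM in RGLS4326. The highest PBS mouse alone reached into the treated range, all 11 treated mice were above the PBS median, and the log2 fold change was 0.63 ± 0.12 (adjusted p = 0.0011). With the no-gene share in the model it was 0.56 (adjusted p = 0.032). *Lama2* ran from 43.2 (median 95.1) to 114 CPM in PBS and from 104 (median 125.5) to 145 CPM in RGLS4326, was above the PBS median in all 11 treated mice, and had a log2 fold change of 0.50 ± 0.12 (adjusted p = 0.0040).

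*Itgb8* had the largest log2 fold change of the members, 0.83 ± 0.29 (adjusted p = 0.029), and a wide spread between mice. It ran from 3.09 (median 23.4) to 49.2 CPM in PBS and from 7.11 (median 50.2) to 63.4 CPM in RGLS4326, and 10 of 11 treated mice were above the PBS median. Within numbering series 1, 2 and 3 the difference was 1.27, 0.30 and 1.11, and it lost its call without the PBS library of replicate 2 or 11 or the RGLS4326 library of replicate 9 (adjusted p at most 0.053). *Itga4* ran from 11.3 (median 17) to 23.2 CPM in PBS and from 15.3 (median 22.3) to 28.2 CPM in RGLS4326, with a log2 fold change of 0.41 ± 0.12 (adjusted p = 0.010). It was the only leukocyte integrin that rose.

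The remaining 3 rose by less and each depended on single libraries. *Itga1* had a log2 fold change of 0.34 ± 0.12 (adjusted p = 0.031) and was not called without the PBS library of replicate 2 or 10 or the RGLS4326 library of replicate 5. *Lamc3* had 0.34 ± 0.12 (adjusted p = 0.034), lay above the PBS median in each of the 11 treated mice, was 0.31, 0.07 and 0.61 within numbering series 1, 2 and 3, and was not called without PBS replicate 2, 10 or 11 or RGLS4326 replicate 2, 3 or 9. *Itga9* had 0.29 ± 0.10 (adjusted p = 0.034) and was not called without PBS replicate 9 or 10 or RGLS4326 replicate 1, 7 or 9. The largest adjusted p of these fits was 0.061, 0.062 and 0.060 for *Itga1*, *Lamc3* and *Itga9*. Of 5 fibroblast markers 1 was higher in RGLS4326 and none lower, with sums of 2081 to 3882 CPM in PBS and 2550 to 3779 CPM in RGLS4326, and of 4 endothelial markers 3 were higher, with sums of 278 to 413 and 359 to 453 CPM. Of 4 podocyte markers 3 were higher and none lower, with sums of 342 to 448 CPM in PBS and 399 to 480.4 CPM in RGLS4326.

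**Figure D5:**
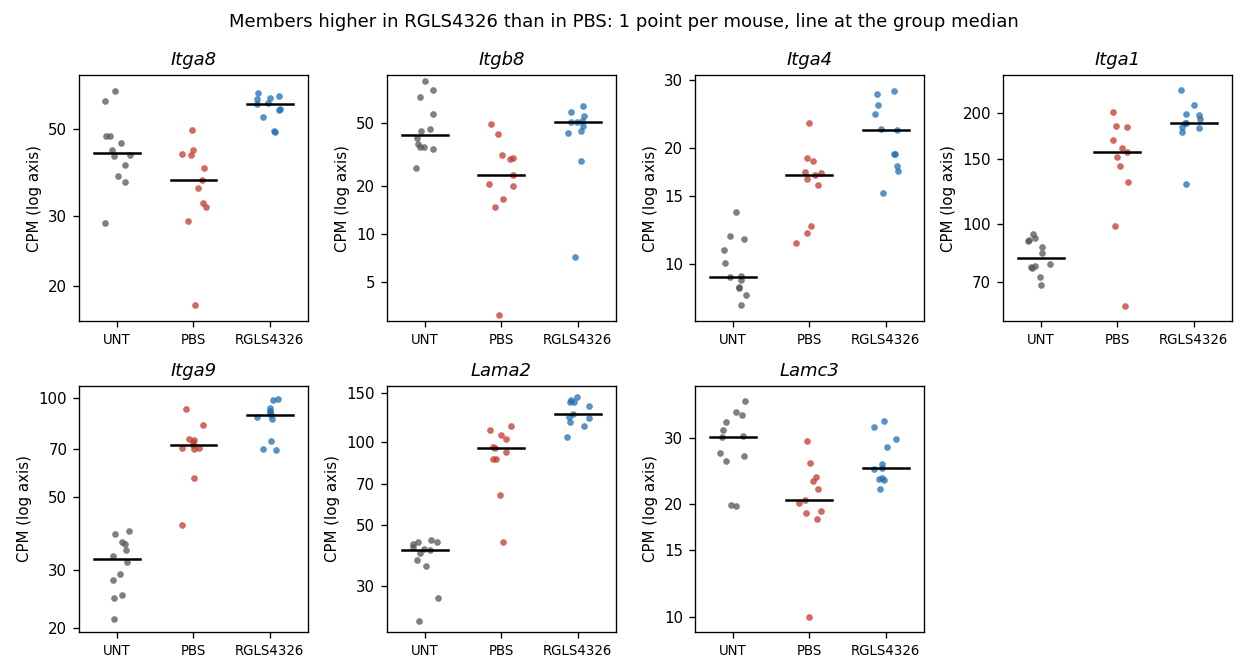
CPM on a log axis of the 7 members that were higher in RGLS4326 than in PBS, 1 point per mouse with a line at the group median. The treated points of *Itga8* and *Lama2* lie in the narrow ranges 49.2 to 61.8 and 104 to 145 CPM, and 1 low point stands apart in PBS for *Itgb8* (3.09 CPM) and 1 in RGLS4326 (7.11 CPM).

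Because RGLS4326 is complementary to the miR-17 seed, matches to that seed in the 3′ untranslated regions (UTRs) of the members are shown beside these values. In the mature miRNAs (RefSeq, GRCm38.p6) the seed, bases 2 to 8, is in capitals, miR-17-5p itself lies at chr14:115043684-115043706 on the plus strand, and 7 mature mouse miRNAs in the table share it, among them the following.
miR-17-5p: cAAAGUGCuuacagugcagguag
miR-20a-5p: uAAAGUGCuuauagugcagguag
miR-93-5p: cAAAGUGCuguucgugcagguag
miR-106b-5p: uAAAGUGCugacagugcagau
Sites of the full 8-base type, complementary to the seed and followed by A, are shown for *Itgb8* (minus strand, chr12:119162898-119162905) and *Itga4* (plus strand, chr2:79327747-79327754), both in their 3′ UTRs (GENCODE M21 on GRCm38, in the sense of the transcript), with the match in capitals.
Itgb8: tagtgttgtaGCACTTTAttgtaatata
Itga4: tataaatatcGCACTTTAgctgatacac
Seed matches of 7 or 8 bases were found in 7 of 36 members (19.4%, against 21.2% of 14193 tested genes with an annotated 3′ UTR), and 8-base matches in 3 (8.33% against 4.26%), the third being *Lama3*. *Itgb8* had 4 matches, *Lamc1* and *Lama3* had 2 each, and *Itga2*, *Itga4*, *Itga8* and *Itgb6* had 1. Longer UTRs have more room for matches, and the median length was 1150 bases over tested genes. The UTRs had 6508 bases in *Itga4*, 5095 in *Itgb8*, 3404 in *Itga2*, 2551 in *Lamc1*, 2483 in *Itga8*, 2193 in *Itgb6* and 350 in *Lama3*. Of these 7 genes *Itgb8*, *Itga4* and *Itga8* were higher in RGLS4326, *Lama3* was lower, and *Lamc1* (log2 fold change −0.0019 ± 0.10), *Itga2* (−0.20 ± 0.21) and *Itgb6* (0.06 ± 0.12) were not called. A match is a description of these letters and not evidence of binding.

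Of the 7 tested leukocyte integrins 5 did not pass the test between RGLS4326 and PBS, where 33.8% of all tested genes were called. *Itgax* fell by 0.44 ± 0.17 (adjusted p = 0.040), from 14.6 (median 25.3) to 41.8 CPM in PBS to 11.0 (median 20.7) to 24.9 CPM in RGLS4326, and all 11 treated mice were below the PBS median. Its call was lost without PBS replicate 2, 3, 6, 9 or 11 or RGLS4326 replicate 1, 2, 5, 6 or 11, with an adjusted p of 0.10 without PBS replicate 9. *Itgam* had a median of 53.6 CPM in PBS and 50.2 CPM in RGLS4326 and a log2 fold change of −0.13 ± 0.13 (adjusted p = 0.44). The log2 fold changes were −0.31 ± 0.15 for *Itgb2* (adjusted p = 0.098), −0.43 ± 0.18 for *Itgb7* (adjusted p = 0.055), −0.27 ± 0.14 for *Itgae* and 0.18 ± 0.13 for *Itgal*.

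Markers of the same cells were measured beside them. Of 6 macrophage markers 4 were lower in RGLS4326 and none higher, with sums of 806 to 2512 CPM in PBS and 750 to 1534 CPM in RGLS4326. Of 5 T cell markers 4 were lower, with sums of 9.44 to 29.5 and 7.83 to 13 CPM, of 5 pan-leukocyte markers 1 was lower, and of 4 neutrophil markers none was called. Of 4 dendritic cell markers 1 (*Zbtb46*) was higher and none lower, with sums of 12.8 (median 15.0) to 19.0 and 14.8 (median 16.8) to 21.4 CPM. The ranges overlapped in all of these sums, and the part of cell number was not tested.

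Ratios between members were taken within each library. Of 8 ratios compared over mice in both contrasts (16 permutation tests, two-sided, Benjamini-Hochberg adjusted over the 16), 15 passed an adjusted p of 0.05. The ratios use the same levels as the gene tests above, so they are no separate support for those results. The share of ratios between other genes that would pass was not computed, and 82.1% of all tested genes were called between PBS and UNT. The smallest p the 100000 resamples can give is 2e-05. The log2 ratio of *Itgb4* to *Itgb1* was −5.02 ± 0.385 (SD) in UNT, −2.63 ± 0.365 in PBS and −3.23 ± 0.250 in RGLS4326, differences of 2.40 for PBS minus UNT and −0.60 for RGLS4326 minus PBS. All 11 PBS mice were above the UNT mean and all 11 treated mice were below the PBS mean. The log2 ratio of *Itga6* to *Itga3* was 1.31 ± 0.289, −0.27 ± 0.380 and 0.31 ± 0.204.

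The log2 ratio of *Lama1* to *Lama5* was −3.79 ± 0.276 in UNT, −5.30 ± 0.760 in PBS and −4.76 ± 0.215 in RGLS4326, without overlap between UNT and PBS. For the beta chains the disease difference alone passed. That of *Lamb1* to *Lamb2* was 0.79 ± 0.215, 1.53 ± 0.182 and 1.58 ± 0.124, and the difference between RGLS4326 and PBS, 0.06, was the 1 of 16 that did not pass (permutation p = 0.41). That of *Itgam* to *Itgal* was −0.62 ± 0.322, 2.06 ± 0.274 and 1.77 ± 0.356, with a permutation p of 0.046 (adjusted 0.049) for the treated mice against PBS, which did not pass with 2 CPM added in place of 0.5 (adjusted p = 0.057). That of *Itgax* to *Itgam* was 0.13 ± 0.384, −0.99 ± 0.276 and −1.28 ± 0.242. That of *Itgb6* to *Itgb8* was 1.15 ± 0.847, 2.02 ± 0.851 and 1.18 ± 0.823, with permutation p-values of 0.017 and 0.025, and it reversed to −0.20 between PBS and UNT within numbering series 2.

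Treated cystic kidneys still differed from normal kidneys in most members. Between RGLS4326 and UNT 32 of 36 tested members were called, 30 higher and 2 lower (77.7% of all tested genes, 40.8% higher and 36.9% lower). In 22 members every treated library was above every UNT library, and in *Itga2b* every one was below (20.7% and 16.1% of all tested genes). With a log2 fold change above 0.5 as well, 26 were called (51.0% of all tested genes). This comparison and the treatment comparison share the RGLS4326 mice, and the disease and treatment comparisons share the PBS mice, so their values are only set side by side. *Itgam* was 28.3-fold, *Itgb4* 7.45-fold, *Lamb3* 4.01-fold and *Itga3* 2.78-fold the UNT level in treated mice. *Lama2*, *Itga1*, *Itga4* and *Itga9*, which were higher in PBS than in UNT, were higher again in RGLS4326, at 3.35-fold, 2.30-fold, 2.19-fold and 2.74-fold the UNT level.

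*Itga8* was higher in RGLS4326 than in UNT by a log2 fold change of 0.34 ± 0.11 (adjusted p = 0.0075), and was not called in numbering series 2 alone (0.117, adjusted p = 0.44) or series 3 alone (0.452, adjusted p = 0.095). *Itgb8* (−0.13 ± 0.28), *Lamc3* (−0.15 ± 0.12), *Lama1* (0.04 ± 0.16) and *Itgb6* (−0.18 ± 0.12) were the 4 members not called between RGLS4326 and UNT in the main fit. With the replicate number as a block, 29 members were higher and 3 lower in this comparison, in place of 30 and 2. *Itga7* was called at an adjusted p of 0.049 (log2 fold change 0.19 ± 0.09), and this call held in 12 of the 34 fits that left out a library, with an adjusted p of up to 0.094 in the others.

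The partners of these receptors were examined as 3 lists of named genes, whose counts stand against 82.1% of all tested genes called between PBS and UNT (43.1% higher, 39.0% lower) and 33.8% between RGLS4326 and PBS (15.3% higher, 18.5% lower). For the basement membrane and adhesion machinery lists the share called was near this background in the treatment comparison. Of 16 other basement membrane genes 11 were higher and 4 lower in PBS than in UNT. *Fras1* (log2 fold change 2.35 ± 0.11), which anchors epithelium during development, *Bcam* (2.34 ± 0.13), a receptor for *Lama5*, and *Agrn* (1.70 ± 0.09), a heparan sulfate proteoglycan of the glomerular basement membrane, rose with the smallest p. The collagen IV chains of the mature glomerular basement membrane fell, *Col4a3* by 1.14 ± 0.12, *Col4a4* by 0.49 ± 0.11 and *Col4a5* by 0.31 ± 0.09. The sum of 4 podocyte markers was 567 to 707 CPM in UNT and 342 to 448 CPM in PBS, with 3 of the 4 lower and 1 higher. In RGLS4326 against PBS 3 were higher (*Frem1* 0.82 ± 0.14, *Nid2* 0.42 ± 0.10, *Col4a5* 0.23 ± 0.09) and 2 lower (*Bcam* −0.59 ± 0.13, *Agrn* −0.31 ± 0.09).

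Of 16 integrin ligands 15 were higher in PBS than in UNT, with a median log2 fold change of 2.49. *Icam1*, the ligand of *Itgal*-*Itgb2*, rose by a log2 fold change of 2.57 ± 0.09, *Vcam1*, the ligand of *Itga4*-*Itgb1*, by 3.04 ± 0.13, and *Fgg*, a fibrinogen chain, by 4.46 ± 0.18, while *Vtn* (vitronectin) fell by 0.46 ± 0.19. Between RGLS4326 and PBS 1 ligand was called, *Cdh1* (E-cadherin, the ligand of *Itgae*), at −0.39 ± 0.10 (adjusted p = 0.0050).

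Of 24 tested genes of the adhesion machinery inside the cell, 18 were higher and 4 lower in PBS than in UNT. *Actn1* (an actin crosslinker, 2.32 ± 0.09), *Parvg* (the parvin of blood cells, 2.75 ± 0.14) and *Plec* (plectin, which ties *Itgb4* to keratin, 1.77 ± 0.09) rose with the smallest p, and *Tln2* (−0.99 ± 0.08), *Lims2* (−0.78 ± 0.09) and *Dst* (−0.92 ± 0.13), a talin, a partner of integrin-linked kinase and a plakin, fell. Between RGLS4326 and PBS 3 were higher (*Fermt2* 0.25 ± 0.06, *Lims1* 0.25 ± 0.08, *Dst* 0.36 ± 0.13) and 6 lower. The 3 of these with the smallest p were *Cd151*, a tetraspanin that binds *Itga3* and *Itga6* (−0.33 ± 0.08, adjusted p = 0.0059), *Src* (−0.27 ± 0.07) and *Plec* (−0.31 ± 0.09, adjusted p = 0.013).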

How the data were processed

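Kidney RNA was measured in 34 mice. Per the labels and the study's methods, the authors prepared TruSeq stranded mRNA libraries, sequenced 75-base paired ends, checked read quality with FastQC 0.11.2, trimmed the reads with Trim Galore, mapped them with STAR to GRCm38 (mm10) and counted uniquely mapped reads with HTSeq 0.6.1. What the authors deposited is a whole-number read count for each gene symbol, not normalized. The annotation and the strand setting of the counting are not given in the sources used here.

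Counts were scaled by TMM and tested with edgeR 4.0.16 (quasi-likelihood test, two-sided, R 4.3.3) after filterByExpr, which left 15644 genes, in a single fit of the 3 groups. Adjusted p is the Benjamini-Hochberg value over these genes, and a gene was called under 0.05. The p-values measure the spread between mice, whose relation is not stated. CPM, counts relative to library size, use the TMM-scaled size. CPM per kb used merged exon lengths of GENCODE M21. Ratios used CPM + 0.5 and a permutation test with 100000 resamples. In simulated PBS and UNT counts (15562 genes), 94 of 99 genes with a log2 change of 1 and 74 of 98 with 0.5 were recovered, with 10 false calls among 15365. The simulation changed 200 genes, equally up and down. It therefore does not cover a comparison in which 82.1% of all tested genes were called, as between PBS and UNT. At 17603122 or more reads per library, every member but *Itgad* and *Itga11* had at least 30 counts in every library.

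Members were named whatever their result, except 1 that is counted but not reported here, and of each partner list up to 3 called genes with the smallest p per direction. The members, lists and classes were chosen with earlier results of these data known. Alternatives were DESeq2 1.42.0, its size factors, total counts, no filter, the numbering series or the no-gene read share as a covariate, each series alone, the 2 groups alone, a replicate block, a fold threshold and other pseudocounts. Leaving out each series or each library was added after seeing the data.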

Additional observations from a re-analysis of the deposited data

How the results depend on the processing

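For PBS against UNT and for RGLS4326 against UNT the number of members called stayed within 28 to 35 and 25 to 32 over 15 alternatives, and within 34 to 35 and 31 to 32 with any library left out. For RGLS4326 against PBS, 14 members were called, and 9 to 16 with any library left out (all genes 5280, and 4023 to 6209). The member count was 1, 9 and 0 in numbering series 1, 2 and 3 alone, 8 without series 1 and 9 without series 3, 1 with the no-gene read share as a covariate, and 4 with a log2 fold change above 0.5 as well. For all genes it was 54, 4065 and 0 in series 1, 2 and 3 alone (2826 at an unadjusted p under 0.05 in series 3), 2335 and 2047 without series 2 and 3, 89 with that covariate and 1258 with the fold threshold. The cause of these differences was not tested. RGLS4326 against UNT gave 7972 genes in place of 12157 with the fold threshold. DESeq2 called 35, 15 and 32 members in the 3 comparisons.

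Scaling to total counts moved the median of all genes in PBS against UNT to 0.33, with 8970 higher and 4099 lower calls in place of 6746 and 6095, and in RGLS4326 against UNT likewise to 0.33, with 9148 and 3471 in place of 6385 and 5772. Between PBS and UNT *Itga8* then reversed to 0.001, and *Itga6* and *Itgav* reversed to −0.073 and −0.183 in series 3 alone. The ratio of *Itgb6* to *Itgb8* reversed to −0.199 in series 2 alone. Of 16 ratios, 15 passed over all mice, 14 with 2 CPM added in place of 0.5 (*Itgam* to *Itgal* in RGLS4326 against PBS no longer passed), and 0 in any series alone, where 15, 14 and 15 of them kept their sign and the smallest exact permutation p that groups of this size gave was 0.0571, 0.0286 and 0.0286.

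Whether the replicate numbers pair the mice is not stated. The 33 same-numbered pairs correlated at −0.329 to 0.412 in their deviations from the group means, with 9 above 0.1. Pairs with different numbers were not compared, so these values cannot decide it. With the replicate number as a block, 35, 13 and 32 members were called in PBS against UNT, RGLS4326 against PBS and RGLS4326 against UNT.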
